A study of Mus musculus with 12 samples.

Results

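The genes described here encode the phase I enzymes of drug and lipid metabolism: cytochromes P450, alcohol and aldehyde dehydrogenases, aldo-keto reductases, flavin monooxygenases and carboxylesterases. They are the protein-coding genes of the mouse families Cyp, Aldh, Akr1, Akr7, Adh, Fmo and Ces, without Cyp51, which belongs to cholesterol synthesis. The families hold 170 of the 21552 protein-coding genes that the transcripts could be matched to. RNA-seq counts were available for conditionally immortalized proximal tubule (PT) cells of mouse kidney in 4 groups of 3 libraries. TβRIIflox/flox PT cells (labelled H2ts6;Tgfbr2fl/fl) keep the type II TGF-β receptor, and TβRII−/− PT cells (H2ts6;Tgfbr2-/-) lost it through adeno-Cre given in culture. Both carry a T antigen that is active at low temperature, inherited from the Immorto-mouse, came from male mice, and were grown with interferon-γ at the permissive temperature before being moved to the higher temperature at which they differentiate. Each genotype was measured untreated in normal culture media and after 24 h of H2O2 in serum free media, so the H2O2 groups differ from the untreated groups in peroxide and in serum. The H2O2 concentration is given as 200 μM in the methods and as 200 mM in the labels.

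The genotypes are 2 cell lines, so loss of TβRII and any other difference between the lines cannot be told apart. The methods say in general terms that in vitro work was repeated independently, but neither they nor the labels say which cultures the 3 libraries of a group came from, and p-values measure only the spread between these libraries. In bulk RNA, fewer cells of a type and less RNA per cell cannot be told apart.

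Phase I enzymes add or expose a reactive group on a substrate by oxidation, reduction or hydrolysis. P450 enzymes take electrons from P450 oxidoreductase, encoded by Por, and oxidize drugs, fatty acids, sterols and retinoic acid. Alcohol and aldehyde dehydrogenases work in sequence, turning retinol into retinaldehyde and retinaldehyde into retinoic acid, and they also clear aldehydes left by lipid peroxidation. The proximal tubule is the main site of such enzymes in the kidney, and it is known there for P450 enzymes that hydroxylate arachidonic acid and for the activation of vitamin D.

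The counts assigned to genes were between 15870155 and 20857618 per library. Of 12 markers of proximal tubule, 6 had enough counts to test. The defining markers Slc34a1 and Hnf4a were close to absent: Slc34a1, Hnf4a, Slc22a6, Slc22a8 and Slc27a2 had at most 3 counts in every library. The summed level of the proximal tubule markers was 22028 to 28010 normalized counts in untreated TβRIIflox/flox PT cells and 15057 to 16088 in untreated TβRII−/− PT cells. All 6 that could be tested (Lrp2, Cubn, Slc5a2, Slc5a12, Aqp1 and Ggt1) were lower in TβRII−/− PT cells. The summed level of 6 general kidney epithelium markers was 17564 to 19092 in the former and 37232 to 40332 in the latter, and 5 of them (Epcam, Cdh1, Cdh16, Krt8 and Krt18) were higher. None of 6 distal nephron markers had enough counts to test. The summed level of 7 fibroblast markers was 55.9 to 69.4 in untreated TβRIIflox/flox and 16.5 to 29.3 in untreated TβRII−/− PT cells, that of 5 immune markers 896 to 1077 and 948 to 976, and that of 4 endothelial markers, of which only Kdr was tested, 127 to 138 and 464 to 586. Within these lists single genes differed: Col1a1 and Pdgfrb were lower and Dcn, at most 7.66 normalized counts in the untreated libraries, higher in untreated TβRII−/− PT cells, and the macrophage marker Cd68 was higher (234 ± 11.5 against 136 ± 8.26), while Csf1r, which made up most of the immune sum, was not called. These shifts lie along the same contrast as every genotype difference reported here, and their part in those differences was not tested. Tgfbr2 itself kept 6485 to 6895 counts in untreated TβRII−/− PT cells against 7032 to 8791 in untreated TβRIIflox/flox PT cells. With H2O2 it had 7156 to 9299 against 11960 to 13474. The transcript extends beyond the deleted exon, so its count checks nothing about the deletion. The methods state that the deletion was checked by immunoblotting and RNAseq.

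Much of this metabolism was silent in both lines. Of the 170 genes, 52 (30.6%) had enough counts to be tested, 70 had no count in any library, 28 never exceeded 3 counts in a library, and 20 had more but did not pass the filter on low counts. All 9 mitochondrial and amino acid aldehyde dehydrogenases and both formyltetrahydrofolate dehydrogenases were measured. In contrast, only 3 of the 52 drug-oxidizing P450 genes of families 1 to 3, 3 of 19 carboxylesterases and 1 of 7 flavin monooxygenases passed the filter, and 32 of those P450 genes had no count at all. Cyp27b1, which makes the active form of vitamin D in proximal tubule, stayed at or below 6 counts, and Adh1 at or below 11.

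**Figure D1:**
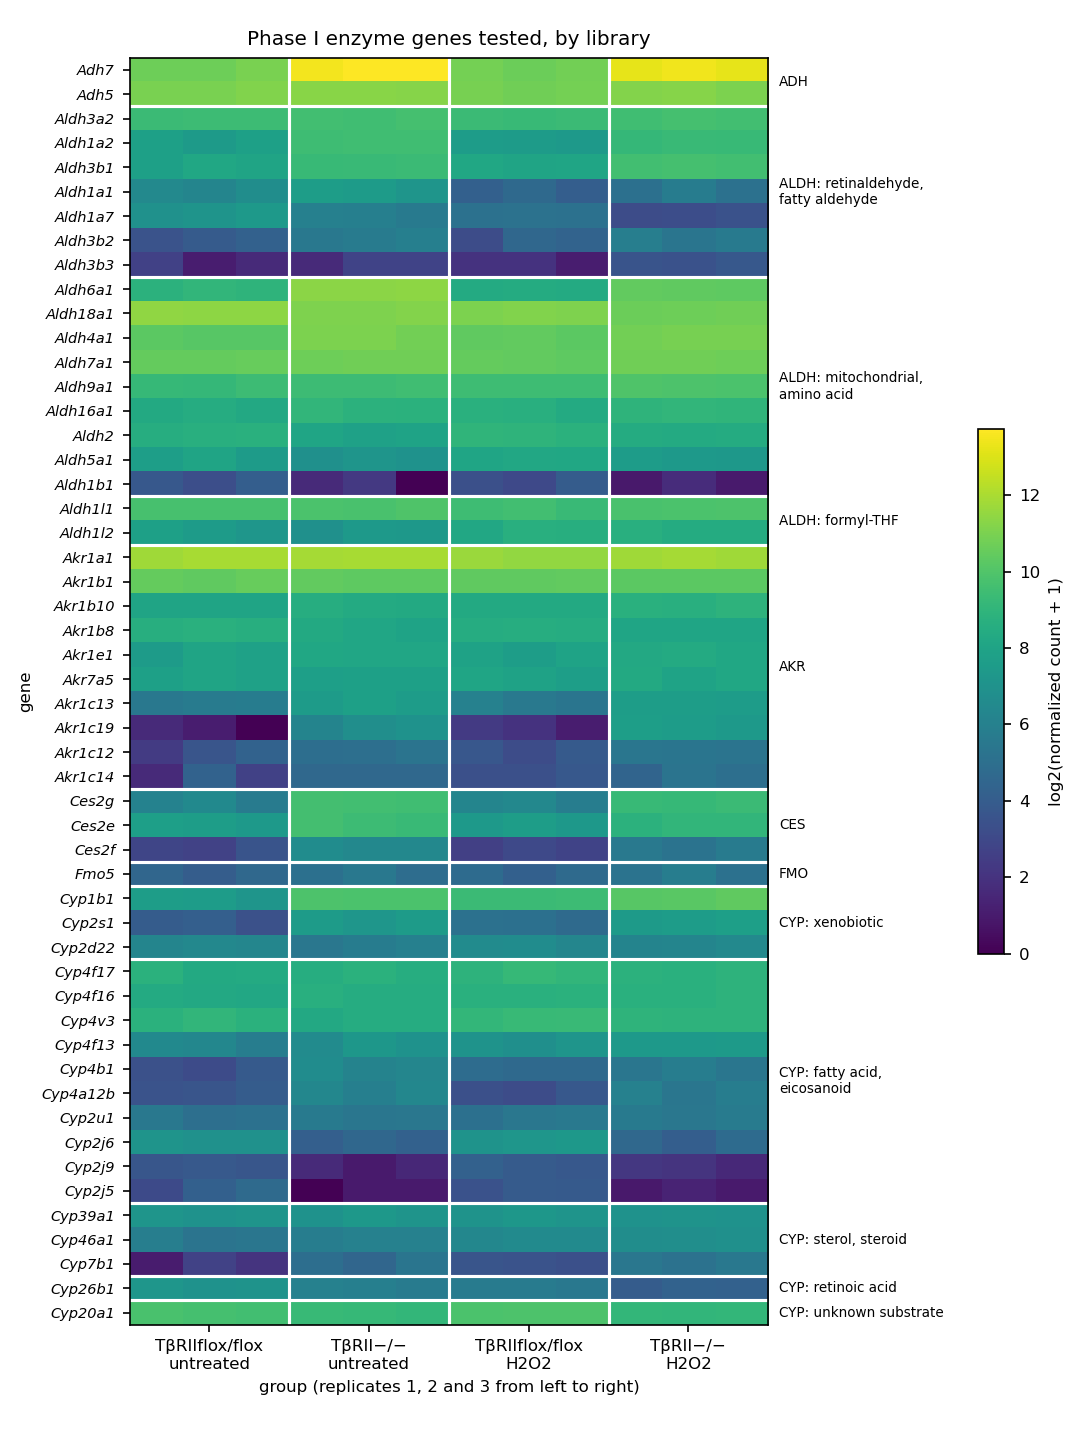
Heat map of the 52 genes that passed the filter (rows, grouped by enzyme role) in the 12 libraries (columns, grouped by genotype and treatment). Colour gives log2(normalized count + 1). Adh7, Akr1a1 and Aldh18a1 are among the brightest rows, and Ces2g, Cyp2s1 and Akr1c19 turn from dark to bright between the genotypes.

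Levels between genes were compared per length, in TPM (transcript counts per kilobase, scaled to a fixed total per library) computed from the counts. In untreated TβRIIflox/flox PT cells the highest was Akr1a1, an aldehyde reductase, at 442 ± 24.0 TPM (SD, n = 3), followed by Adh5, the glutathione-dependent formaldehyde dehydrogenase, at 217 ± 18.6 TPM, and Akr1b1, aldose reductase, at 170.0 ± 13.8 TPM. Aldh18a1, which starts proline synthesis, followed at 129 ± 3.75 TPM, and Adh7 at 69.9 ± 9.04 TPM. In untreated TβRII−/− PT cells Adh7 came first at 509 ± 36.8 TPM, above Akr1a1 at 454 ± 6.63 TPM. After H2O2 the same cells held 425 ± 35.1 TPM of Adh7 and 445 ± 16.4 TPM of Akr1a1, a difference smaller than the spread. Most of the transcript of Akr1b1 (67.4%) is shared with pseudogenes at 98% identity or more, so its level is uncertain.

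To find how the genotypes differ, untreated TβRII−/− PT cells were compared with untreated TβRIIflox/flox PT cells. A gene was called where edgeR's quasi-likelihood test gave a Benjamini-Hochberg adjusted p under 0.05 over all 12971 genes tested and the fold was at least 1.5. Of the 52 phase I genes tested, 30 were called, against 28.0% of all genes tested. Of these, 21 were higher in TβRII−/− PT cells, where the share of all genes was 16.3%, and 9 were lower, where it was 11.8%. The median log2 fold change was 0.31 over the 52 genes and 0.01 over all genes. A gene that passes the filter only through the group where it is high had to differ, and of the 38 phase I genes that reached 10 counts in each of the 12 libraries, 16 were called, against 23.3% of all genes with such counts. With H2O2, 28 of 52 were called between the genotypes against 30.7% of all genes. Of these, 20 were higher and 8 lower, where the shares of all genes were 17.3% and 13.4%. Of the 38 with such counts 14 were called, against 26.0%.

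Of the genes called, 26 were called in the same direction with and without H2O2, 86.7% of the first list and 92.9% of the second, against 82.9% and 75.7% over all genes. Aldh4a1, Aldh2, Cyp2d22 and Cyp4f13 were called without H2O2 alone, and Aldh3b3 and Cyp20a1 with H2O2 alone. The difference between both genotype effects passed the test for Cyp20a1 (edgeR adjusted p = 0.0381) but for none of the other 5, whose adjusted p lay between 0.153 and 0.438 by edgeR.

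**Figure D2:**
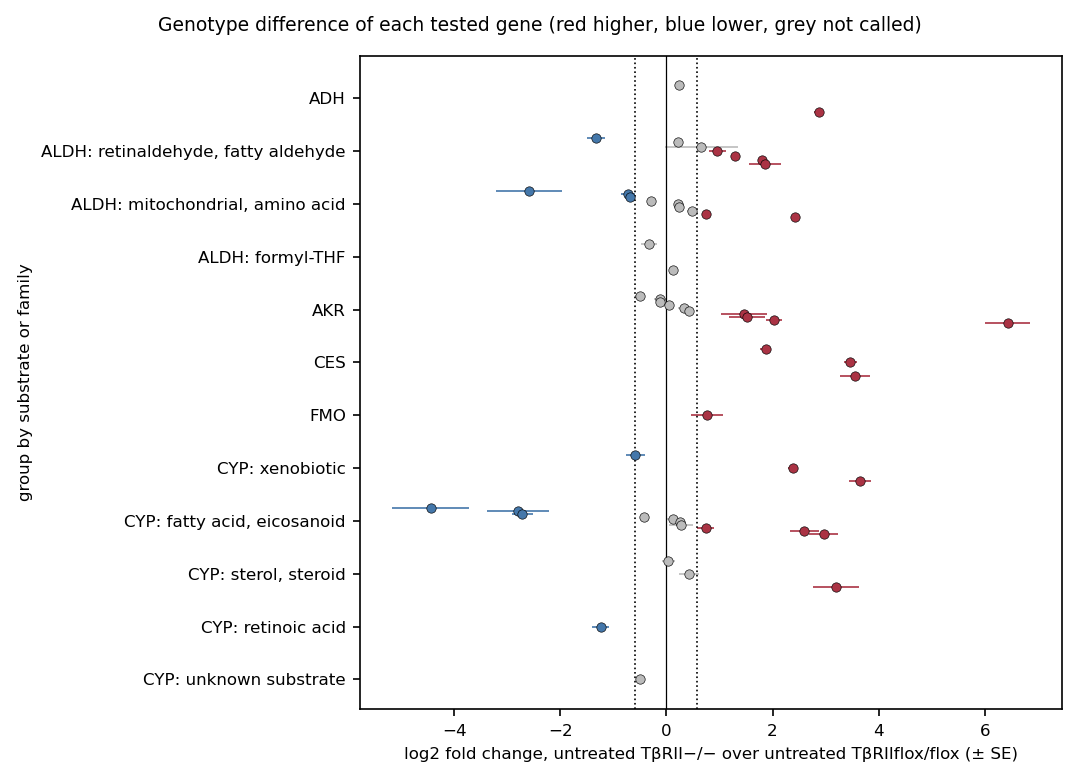
Log2 fold change of untreated TβRII−/− over untreated TβRIIflox/flox PT cells (x axis) for each of the 52 genes tested, grouped by enzyme role, with bars of 1 SE. Red marks genes called higher, blue genes called lower, and grey genes not called; dotted lines mark a fold of 1.5. The 3 carboxylesterases and the 4 called Akr1c genes lie to the right and the 3 Cyp2j genes to the left.

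Genes of retinoic acid synthesis and breakdown were called in both directions between the untreated genotypes. Adh7, a retinol-oxidizing alcohol dehydrogenase, had 1645, 1660.3 and 2006 normalized counts in the untreated TβRIIflox/flox libraries and 11789.7, 13418 and 13686 in the untreated TβRII−/− libraries. With H2O2 it had 1865, 1606 and 1786 in TβRIIflox/flox and 9742, 11218 and 9600.2 in TβRII−/− PT cells. Every TβRII−/− library was far above every TβRIIflox/flox library. The difference was 7.32-fold without H2O2 (log2 2.87 ± 0.08 SE, edgeR adjusted p = 1.82e-24) and 5.81-fold with it (edgeR adjusted p = 4.42e-23). Adh7 lies at chr3:138198064-138232042 (GRCm38), and the other genes tested within 1 Mb had a median log2 fold change of 0.19 over 12 genes. Adh5, in the same cluster, differed by 0.24 ± 0.06 on the log2 scale, below the fold limit.

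Aldh1a2 makes retinoic acid from retinaldehyde. It had 223, 180.3 and 220.5 normalized counts in untreated TβRIIflox/flox PT cells and 701, 741 and 749.5 in untreated TβRII−/− PT cells. No library of one genotype reached the range of the other, and the level was 3.51-fold higher (log2 1.81 ± 0.09 SE, edgeR adjusted p = 2.63e-18). Aldh1a1, a second enzyme of this step, had 88.4, 74.6 and 108 against 198, 187 and 144, a 1.95-fold rise (edgeR adjusted p = 7.91e-06). Its neighbour Aldh1a7, a close relative found in rodents, went the other way, from 121, 139 and 165 in TβRIIflox/flox to 62.7, 59.1 and 47.9 in TβRII−/− PT cells (2.5-fold lower, edgeR adjusted p = 2.72e-08). Both genes lie within 235 kb of chromosome 19. The groups did not overlap for either gene.

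Cyp26b1, the P450 that breaks retinoic acid down, was the only one of the 3 Cyp26 genes with enough counts to test. It had 149, 129 and 133 normalized counts in untreated TβRIIflox/flox PT cells and 63.8, 59.1 and 51.7 in untreated TβRII−/− PT cells. It was thus 2.36-fold lower in every TβRII−/− library (log2 −1.24 ± 0.16 SE, edgeR adjusted p = 3.91e-08), while the enzymes of synthesis Adh7, Aldh1a1 and Aldh1a2 were higher. Of 10 other tested genes of retinoid handling, 2 were higher in untreated TβRII−/− PT cells (Stra6 and Dhrs9) and 2 lower, among them Dhrs3. The shares of all genes were 16.3% and 11.8%. The remaining 6 were not called, among them the retinol dehydrogenase Rdh10, at 757 ± 80.0 against 776 ± 21.2 normalized counts. Stra6, a membrane receptor for retinol uptake, rose from 9.47, 12.2 and 8.60 to 312, 272 and 301 normalized counts (28.9-fold, edgeR adjusted p = 3.85e-20). Dhrs9, a retinol dehydrogenase, rose from 4.21, 2.23 and 8.60 to 227, 249.8 and 212 (44.5-fold, edgeR adjusted p = 2.35e-19). It passed the filter on low counts only through TβRII−/− libraries. Dhrs3, which reduces retinaldehyde back to retinol, fell from a mean of 3462 ± 316 to 2012 ± 38.7 (1.72-fold lower, edgeR adjusted p = 9.14e-13).

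**Figure D3:**
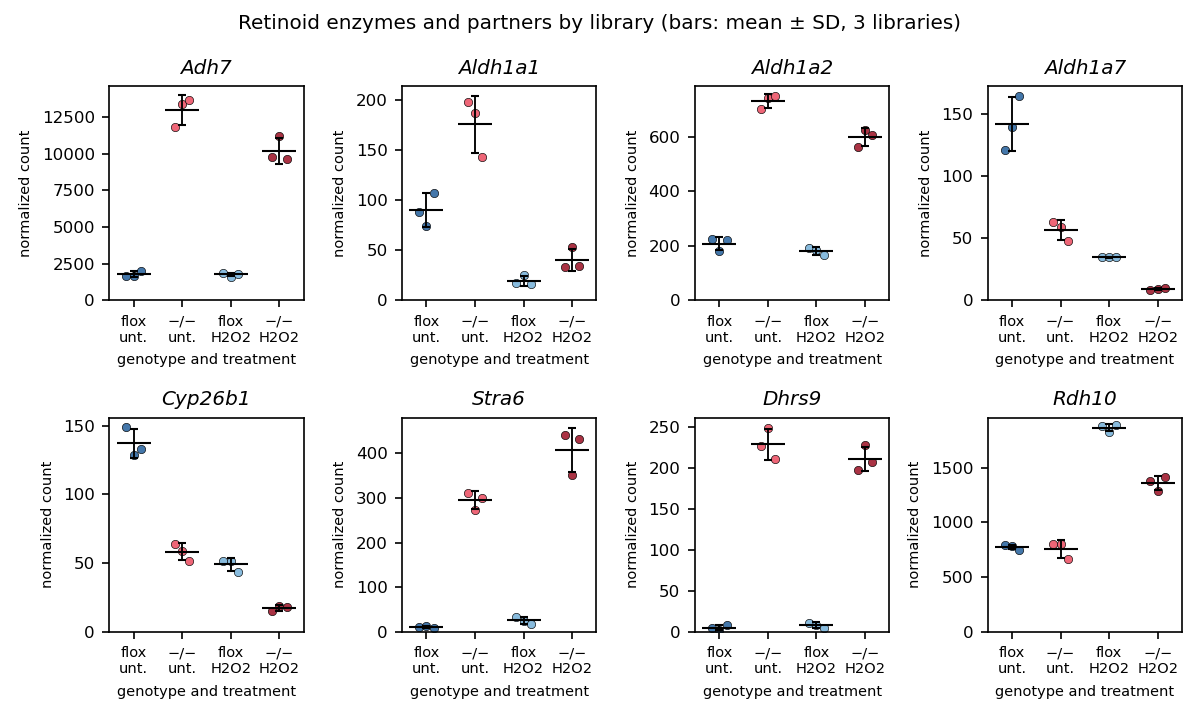
Normalized counts (linear axis) of Adh7, Aldh1a1, Aldh1a2, Aldh1a7, Cyp26b1, Stra6, Dhrs9 and Rdh10 in the 4 groups. Points are libraries and bars are the mean ± SD of 3. Adh7, Aldh1a2, Stra6 and Dhrs9 lie higher in TβRII−/− PT cells with and without H2O2, Aldh1a1, Aldh1a7 and Cyp26b1 lie lower with H2O2 in both lines, and Rdh10 lies higher with H2O2 in both.

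Of the 4 tested aldehyde dehydrogenases of the Aldh3 family, which act on fatty and lipid-derived aldehydes, Aldh3b1 and Aldh3b2 were higher in untreated TβRII−/− PT cells. The share of all genes called higher was 16.3%. Aldh3b1, which oxidizes aldehydes from lipid peroxidation, had 219.9, 294 and 256 normalized counts in untreated TβRIIflox/flox PT cells and 603, 628 and 656 in untreated TβRII−/− PT cells (2.46-fold, edgeR adjusted p = 1.24e-14). Aldh3b2 rose from 10.5, 14.5 and 18.3 to 45.0, 52.3 and 60.3 (3.63-fold, edgeR adjusted p = 1.95e-06). The groups did not overlap for either gene, and both lie with Aldh3b3 in 68.2 kb of chromosome 19. Aldh3b3 held at most 5.81 normalized counts in the untreated groups and 11.1, 10.2 and 12.9 in TβRII−/− PT cells with H2O2, at least 3.8-fold above TβRIIflox/flox PT cells with H2O2. It passed the filter on low counts only through these TβRII−/− libraries with H2O2. Aldh3a2, the fatty aldehyde dehydrogenase, differed by 0.22 ± 0.07 on the log2 scale, below the fold limit.

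Among the 9 mitochondrial and amino acid aldehyde dehydrogenases, 2 were higher and 3 lower in untreated TβRII−/− PT cells. The shares of all genes were 16.3% and 11.8%. Aldh6a1, methylmalonate semialdehyde dehydrogenase of valine and thymine breakdown, had 461, 527 and 483 normalized counts in untreated TβRIIflox/flox and 2588, 2660.5 and 2691 in untreated TβRII−/− PT cells. The groups were far apart, and the rise of 5.4-fold (log2 2.43 ± 0.06 SE) had the smallest adjusted p of the 52 genes, 2.1e-25 by edgeR. Aldh6a1 lies at chr12:84430717-84451024 (GRCm38), where 68.0% of its transcript runs antisense to Bbof1. Whether counting used strand is not given in the sources used here, but Bbof1 held 49.4 to 68.99 normalized counts in untreated TβRIIflox/flox PT cells and 102 to 120.1 in untreated TβRII−/− PT cells.

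Aldh4a1, which completes proline breakdown in mitochondria, had 1249, 1169.5 and 1151 normalized counts in untreated TβRIIflox/flox and 2095, 2066 and 1817 in untreated TβRII−/− PT cells (1.67-fold higher, edgeR adjusted p = 1.28e-11). It shares 46.9% of its transcript with the read-through gene Gm21969, and the division of reads between them is uncertain. Prodh, the first enzyme of the same breakdown, rose from 61.0, 61.2 and 60.2 to 641, 596 and 651 (10.3-fold, edgeR adjusted p = 1.94e-22). It was the only one of 11 listed genes of one-carbon and proline metabolism called between the untreated genotypes. Shmt2 and Mthfd1l, of mitochondrial one-carbon metabolism, had log2 fold changes of −0.36 ± 0.06 and −0.37 ± 0.07, and Aldh18a1, of proline synthesis, had −0.28 ± 0.06. All 3 were below the fold limit.

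Aldh2, the main mitochondrial acetaldehyde dehydrogenase, was lower in TβRII−/− PT cells, at 268, 231 and 254 normalized counts against 379, 407 and 422 (1.6-fold lower, edgeR adjusted p = 5.62e-08). Aldh5a1, the succinate semialdehyde dehydrogenase of GABA breakdown, had 118, 145 and 125 against 205, 256 and 184 (1.65-fold lower, edgeR adjusted p = 6.97e-06). Both were lower in every TβRII−/− library. Aldh1b1, a mitochondrial relative of Aldh2, was also lower but had at most 16.1 normalized counts in any library. It passed the filter on low counts only through TβRIIflox/flox libraries. The lysine enzyme Aldh7a1, the carnitine pathway enzyme Aldh9a1, Aldh16a1 and Aldh18a1 stayed within the fold limit.

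Of 17 aldo-keto reductases, 10 were tested and 4 called between the untreated genotypes, against 28.0% of all genes. These 4 were higher in TβRII−/− PT cells, where the share of all genes was 16.3%. All 4 belong to the Akr1c cluster, chr13:4048991-4609164 (GRCm38). Akr1c enzymes reduce steroids and other carbonyl compounds. Akr1c19 had 2.10, 1.11 and 0 normalized counts in untreated TβRIIflox/flox and 72.2, 110.4 and 128 in untreated TβRII−/− PT cells, at least 34.5-fold more against a floor of 3 counts per library (edgeR adjusted p = 7.62e-15). Before normalization it held at most 4 counts in any TβRIIflox/flox library, so it passed the filter on low counts only through TβRII−/− libraries. Akr1c13 had 44.2, 51.2 and 52.7 against 188, 225 and 193, which was 4.09-fold more (edgeR adjusted p = 2.79e-13). Akr1c12 and Akr1c14 were lower in abundance, at most 38.3 normalized counts without H2O2, and were 2.87-fold and 2.76-fold higher. Of the cluster's 9 genes 5 were tested, and the fifth, Akr1e1, differed by 0.33 ± 0.11 on the log2 scale, below the fold limit. The 4 other genes tested within 1 Mb of Akr1c12 had a median log2 fold change of −0.10.

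Akr1c12 and Akr1c13 share 26.0% of the Akr1c13 transcript at 98% identity or more, so their counts are not fully independent. The sequences before the starts of Akr1c12 and Akr1c13, from RefSeq annotation on GRCm38.p6, are shown because the genes moved together and lie close by. They are chr13:4279400-4279649 on the minus strand for Akr1c12 and chr13:4190937-4191167 on the plus strand for Akr1c13. Capitals mark bases that differ from the other gene, or have no partner in it, within the stretch that was aligned; the ends of the longer Akr1c12 window lie outside that stretch and are in lower case.
Akr1c12: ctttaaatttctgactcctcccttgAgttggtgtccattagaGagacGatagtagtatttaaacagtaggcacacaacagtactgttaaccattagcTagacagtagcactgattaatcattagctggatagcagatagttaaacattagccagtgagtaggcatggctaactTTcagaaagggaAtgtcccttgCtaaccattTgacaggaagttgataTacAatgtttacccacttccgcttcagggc
Akr1c13: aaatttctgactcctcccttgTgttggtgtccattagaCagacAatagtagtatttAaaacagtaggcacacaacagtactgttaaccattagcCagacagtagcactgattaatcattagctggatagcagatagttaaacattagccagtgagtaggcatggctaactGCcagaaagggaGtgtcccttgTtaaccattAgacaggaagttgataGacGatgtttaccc
Of 231 aligned columns, 219 were identical (94.8%) and 12 were different or a gap.

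Outside this cluster no aldo-keto reductase was called. Akr1a1 had a log2 fold change of 0.04 ± 0.06 and Akr1b1 one of −0.12 ± 0.06 between the untreated genotypes. Akr1b8 and Akr1b10, neighbours on chromosome 6, had opposite values of −0.50 ± 0.09 and 0.43 ± 0.09, both below the fold limit. Akr7a5 had −0.12 ± 0.11.

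All 3 carboxylesterases that could be tested were called higher in untreated TβRII−/− PT cells, where the share of all genes was 16.3%. They are members of the Ces2 family, which hydrolyses ester drugs and acylglycerols, and lie in one stretch of 416 kb, chr8:104734003-105150109 (GRCm38), that holds 10 carboxylesterase genes. Ces2g had 66.3, 90.1 and 51.6 normalized counts in untreated TβRIIflox/flox and 798, 768 and 730.4 in untreated TβRII−/− PT cells (log2 3.47 ± 0.12 SE, edgeR adjusted p = 4.64e-22). Ces2e had 217, 197 and 166 against 786, 694 and 644, a 3.66-fold rise (edgeR adjusted p = 5.23e-17). Ces2f had 6.31, 5.56 and 10.8 against 102, 83.3 and 85.2, an 11.8-fold rise (edgeR adjusted p = 8.81e-13). Before normalization Ces2f held at most 10 counts in any TβRIIflox/flox library, so it passed the filter on low counts only through TβRII−/− libraries. In each case the lowest TβRII−/− library was well above the highest TβRIIflox/flox library. The other genes tested within 1 Mb of Ces2f and Ces2g had a median log2 fold change of 0.21 over 46 genes. Ces1g, whose counts were too few to test, had 7.36, 10.02 and 8.60 normalized counts in untreated TβRIIflox/flox PT cells and was listed at 0 in all TβRII−/− libraries.

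**Figure D4:**
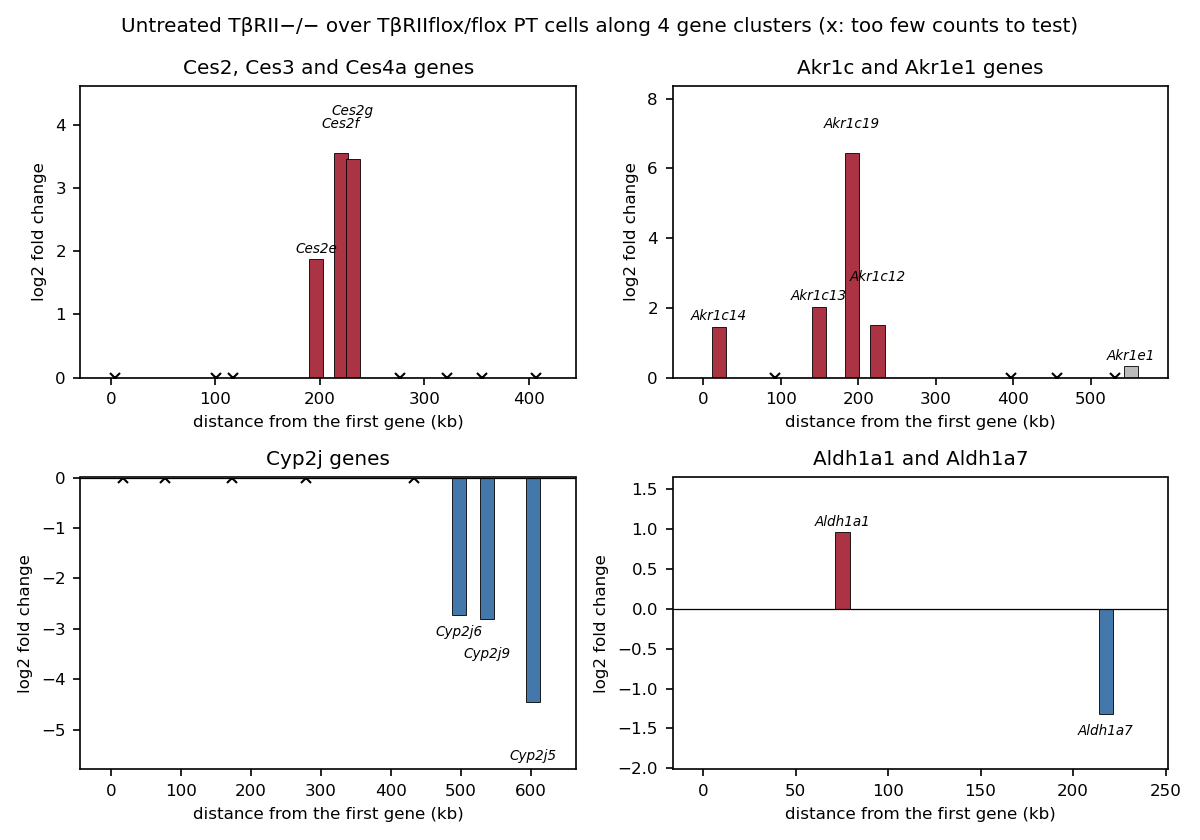
Log2 fold change of untreated TβRII−/− over untreated TβRIIflox/flox PT cells (y axis) against distance along the chromosome in kb (x axis) for 4 gene clusters: Ces2, Ces3 and Ces4a; Akr1c and Akr1e1; Cyp2j; and Aldh1a1 with Aldh1a7. Crosses mark genes with too few counts to test. The tested genes lie above 0 in the first pair of clusters, below 0 in the Cyp2j cluster, and on either side of 0 for Aldh1a1 and Aldh1a7.

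The drug-metabolizing P450 genes were represented by Cyp1b1, Cyp2s1 and Cyp2d22. Cyp1b1, which oxidizes polycyclic hydrocarbons and oestrogens and is a classical target of the aryl hydrocarbon receptor, had 203, 191 and 144 normalized counts in untreated TβRIIflox/flox PT cells. It had 971, 917 and 931 in untreated TβRII−/− PT cells, with no overlap (5.23-fold higher, log2 2.39 ± 0.09 SE, edgeR adjusted p = 3.57e-21). Cyp2s1, another P450 known to respond to this receptor, had 14.7, 16.7 and 9.68 against 182, 147 and 188 (12.5-fold higher, log2 3.64 ± 0.21 SE, edgeR adjusted p = 1.68e-16). The neighbours within 1 Mb had median log2 fold changes of −0.07 over 20 genes for Cyp1b1 and −0.04 over 24 genes for Cyp2s1. Cyp2d22, the mouse relative of human CYP2D6, was 1.51-fold lower, at 42.9, 53.2 and 62.2 against 74.7, 85.7 and 79.6 (edgeR adjusted p = 0.00478). Its log2 value of −0.59 became −0.55 when replicate 2 of the untreated TβRIIflox/flox libraries was left out and −0.47 when replicate 1 of the untreated TβRII−/− libraries was, and both are within the fold limit. The call was also lost with summed transcripts (log2 −0.535) and with at least 10 counts required in every library (log2 −0.576). Cyp1a1, the best known target of the receptor, had at most 10 counts in any library and was not tested.

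The aryl hydrocarbon receptor itself, Ahr, was 1.62-fold higher in untreated TβRII−/− PT cells, at 148, 151 and 166 normalized counts against 84.2, 77.9 and 125 (edgeR adjusted p = 0.000217). Its partner Arnt was 1.65-fold lower, at 1512 ± 87.2 against 2499 ± 134 (edgeR adjusted p = 8.15e-12). Of 14 listed xenobiotic receptors and partners 9 were tested: Ahr, Rxra and Nfe2l2 were higher and Arnt and Vdr lower. The shares of all genes were 16.3% higher and 11.8% lower. Rxra, the shared partner of many nuclear receptors, was 2.36-fold higher, and Nfe2l2, the oxidant-responsive factor NRF2, was 2.16-fold higher, at 3757 ± 117 against 1739.9 ± 67.5.

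Of 5 other listed targets of the aryl hydrocarbon receptor, 4 were tested. Ugt1a6a, a glucuronosyltransferase, rose from 7.36, 6.68 and 8.60 to 176, 189.8 and 167 normalized counts (23.1-fold, edgeR adjusted p = 2.8e-18). Nqo1, a quinone reductase that NRF2 also controls, rose from 45.2, 57.9 and 63.5 to 327, 353 and 402 (6.51-fold, edgeR adjusted p = 5.54e-18). Gsta1, a glutathione transferase, was listed at 0 in all TβRIIflox/flox libraries and had 19.9, 19.4 and 15.3 in untreated TβRII−/− PT cells, at least 6.06-fold more. Ugt1a6a and Gsta1 passed the filter on low counts only through TβRII−/− libraries. Tiparp, a target that represses the receptor, was lower in TβRII−/− PT cells, at 645 ± 53.9 against 1152 ± 89.1 (1.79-fold, edgeR adjusted p = 1.94e-11). The targets therefore did not share one direction.

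The 250 bases before the annotated starts of Cyp1b1, Cyp2s1 and Aldh1a2 are shown because these are the called P450 genes tied to this receptor and the called retinoic acid synthase with matches to both motifs. Capitals mark GCGTG, the core of the receptor's binding motif, on either strand (CACGC on the reverse), and TGACNNNGC, the antioxidant response element bound by NRF2. Sequences are from RefSeq annotation on GRCm38.p6, at chr17:79715062-79715311 minus strand, chr7:25816526-25816775 minus strand and chr9:71215539-71215788 plus strand.
Cyp1b1: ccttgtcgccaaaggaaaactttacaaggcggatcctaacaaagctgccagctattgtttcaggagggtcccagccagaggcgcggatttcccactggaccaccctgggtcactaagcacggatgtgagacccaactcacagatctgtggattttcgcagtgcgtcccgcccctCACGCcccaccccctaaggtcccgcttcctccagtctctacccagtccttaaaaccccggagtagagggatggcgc
Cyp2s1: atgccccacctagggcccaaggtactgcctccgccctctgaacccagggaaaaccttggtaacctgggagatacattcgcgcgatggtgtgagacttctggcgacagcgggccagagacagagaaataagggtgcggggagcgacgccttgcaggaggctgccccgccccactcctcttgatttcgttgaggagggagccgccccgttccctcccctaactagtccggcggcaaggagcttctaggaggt
Aldh1a2: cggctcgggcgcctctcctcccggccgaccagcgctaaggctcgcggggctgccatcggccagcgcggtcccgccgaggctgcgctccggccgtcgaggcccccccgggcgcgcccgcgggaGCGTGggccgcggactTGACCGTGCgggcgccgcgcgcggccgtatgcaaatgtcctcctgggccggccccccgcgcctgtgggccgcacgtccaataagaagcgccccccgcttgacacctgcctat
Cyp1b1 has the GCGTG core once, on the reverse strand and starting at −76, and Cyp2s1 has neither motif in this window. Aldh1a2 has the core at −128 and the response element at −112, which do not overlap. Over windows from 250 bases before to 50 after each start, the core was found in 32.4% of all 32851 windows and the response element in 12.4%. The windows of phase I genes called higher in untreated TβRII−/− PT cells held the core in 6 of 20, and those of genes called lower in 1 of 7. The response element was found in 2 of the former and 1 of the latter. A match is a description of letters and not of a bound site.

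The P450 genes of fatty acid and eicosanoid metabolism that were called between the untreated genotypes split by subfamily. Of 29 genes 10 were tested and 6 called, against 28.0% of all genes. Of these, 3 Cyp4 genes were higher in TβRII−/− PT cells, where the share of all genes was 16.3%. All 3 tested Cyp2j genes were lower, where it was 11.8%. Cyp2j enzymes turn arachidonic acid into epoxides. Cyp2j6 had 137, 125 and 125 normalized counts in untreated TβRIIflox/flox and 16.7, 23.2 and 18.2 in untreated TβRII−/− PT cells, far below (6.59-fold lower, log2 −2.72 ± 0.20 SE, edgeR adjusted p = 1.22e-13). Cyp2j5, an epoxygenase known from kidney, had 7.36, 17.8 and 25.8 against 0, 0.968 and 0.957, at least 5.66-fold lower, and Cyp2j9 had 11.6, 13.4 and 11.8 against 2.09, 0.968 and 1.91, at least 4.08-fold lower. All 3 lie in the Cyp2j cluster, chr4:96042660-96664171 (GRCm38), with 5 further members that could not be tested. Before normalization Cyp2j5 held at most 2 counts and Cyp2j9 at most 4 in any TβRII−/− library. Both therefore passed the filter on low counts only through TβRIIflox/flox libraries. Ephx2, the soluble hydrolase that inactivates these epoxides, was also lower, at 36.6, 40.7 and 33.5 against 76.8, 83.5 and 76.4 (2.13-fold lower, edgeR adjusted p = 1.09e-05). Ephx1, the microsomal epoxide hydrolase, had a log2 fold change of 0.41 ± 0.07, below the fold limit.

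Cyp4 enzymes add a hydroxyl group at the end of fatty acid chains. Cyp4b1 had 9.47, 7.79 and 14.0 normalized counts in untreated TβRIIflox/flox and 100.4, 69.7 and 77.5 in untreated TβRII−/− PT cells (7.81-fold higher, edgeR adjusted p = 3.05e-11). Cyp4a12b, of the group that forms the vasoactive lipid 20-hydroxyeicosatetraenoic acid, rose from 10.5, 11.1 and 15.1 to 81.6, 61.0 and 82.3 (6.07-fold, edgeR adjusted p = 4.92e-10). Its whole transcript is shared with Cyp4a12a at 98% identity or more, so the rise cannot be assigned to one of these copies. Cyp4f13 had 90.5, 81.2 and 55.9 against 98.3, 153 and 127, and was called at 1.67-fold (edgeR adjusted p = 0.000291). That call was lost without replicate 3 of untreated TβRIIflox/flox PT cells (log2 0.55) or replicate 2 of untreated TβRII−/− PT cells (log2 0.58). Cyp4f16, Cyp4f17, Cyp4v3 and Cyp2u1 were not called, with log2 fold changes between −0.42 and 0.28.

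Only 3 of 15 P450 genes of sterol, bile acid, steroid and vitamin D metabolism were tested. Cyp7b1, which hydroxylates oxysterols, had 1.05, 5.56 and 3.23 normalized counts in untreated TβRIIflox/flox and 30.3, 22.3 and 39.2 in untreated TβRII−/− PT cells (9.14-fold higher, edgeR adjusted p = 1.33e-07). Before normalization it held at most 11 counts in any TβRIIflox/flox library and passed the filter on low counts only through TβRII−/− libraries. Cyp39a1, which acts on 24-hydroxycholesterol, had 137 ± 9.21 and 140.1 ± 17.02 (log2 0.04 ± 0.13). Cyp46a1, cholesterol 24-hydroxylase, had a log2 fold change of 0.43 ± 0.19, below the fold limit. Among partners of the vitamin D enzymes, the uptake receptors Lrp2 and Cubn and the receptor Vdr were lower in untreated TβRII−/− PT cells (log2 −0.65 ± 0.08, −1.24 ± 0.17 and −0.67 ± 0.14), and Gc, the plasma carrier of vitamin D, was higher at 33.8 ± 5.22 against 18.7 ± 1.81 normalized counts.

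Fmo5, the only flavin monooxygenase tested, had 22.1, 15.6 and 23.7 normalized counts in untreated TβRIIflox/flox and 32.4, 43.6 and 28.7 in untreated TβRII−/− PT cells. It was called at 1.7-fold (edgeR adjusted p = 0.0232), and its adjusted p was 0.109 with replicate 2 of untreated TβRIIflox/flox left out and 0.137 with replicate 2 of untreated TβRII−/− left out. With H2O2 the call (1.8-fold) was likewise lost without replicate 2 of either genotype (edgeR adjusted p = 0.0649 and 0.112).

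All 8 listed genes that pass electrons to P450 enzymes were tested, and Por was the only one called between the untreated genotypes. It had 4025, 3901 and 3038 normalized counts in TβRIIflox/flox and 7714, 7463 and 7450.4 in TβRII−/− PT cells, without overlap (2.06-fold higher, edgeR adjusted p = 9.07e-14). Cyb5r3, which reduces cytochrome b5, was at 1.48-fold and Cyb5a at 1.17-fold, below the limit of 1.5.

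To describe the response to H2O2 in serum free media, treated cells of each genotype were compared with untreated cells in normal culture media. In TβRIIflox/flox PT cells 10 of the 52 phase I genes were called, against 8.24% of all genes tested; 7 were higher, where the share of all genes was 5.68%, and 3 lower, where it was 2.56%. In TβRII−/− PT cells 10 were called, against 8.33%, with 4 higher against 4.56% of all genes and 6 lower against 3.76%. Among the 38 genes that reached 10 counts in each library, 6 and 5 were called, against 7.37% and 6.32%. The median log2 fold change over the 52 genes was 0.08 in TβRIIflox/flox and 0.10 in TβRII−/− PT cells, against 0.01 and 0.02 over all genes. With H2O2 the summed proximal tubule markers were 30896 to 33757 in TβRIIflox/flox and 15865 to 17251 in TβRII−/− PT cells, and the endothelial markers 22.7 to 26.4 and 39.3 to 62.6; their part in these changes was not tested. The lists shared 5 genes in the same direction, 5 of the 10 in each. Over all genes the shared calls were 45.3% of the list in TβRIIflox/flox and 44.8% of that in TβRII−/− PT cells.

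The shared genes included Aldh1a1, Aldh1a7 and Cyp26b1, the 3 that fell in TβRIIflox/flox PT cells. Aldh1a1 had 17.2, 24.8 and 16.04 normalized counts in TβRIIflox/flox PT cells with H2O2, 4.62-fold below the untreated level (edgeR adjusted p = 1.15e-08), and 33.2, 52.7 and 33.8 in TβRII−/− PT cells, 4.32-fold below (edgeR adjusted p = 9.55e-11). Aldh1a7 fell to 34.5, 35.1 and 34.4 in TβRIIflox/flox (4.07-fold, edgeR adjusted p = 1.78e-10) and to 8.31, 8.65 and 9.94 in TβRII−/− PT cells (6.25-fold, edgeR adjusted p = 1.54e-09). In both lines every treated library was below every untreated one.

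Cyp26b1 fell to 51.7, 51.6 and 43.5 normalized counts in TβRIIflox/flox (2.79-fold, edgeR adjusted p = 1.42e-08) and to 14.8, 18.9 and 17.9 in TβRII−/− PT cells (3.35-fold, edgeR adjusted p = 1.42e-07). By contrast Adh7 and Aldh1a2 were not called for H2O2 in either genotype: in TβRIIflox/flox PT cells their log2 fold changes were −0.02 ± 0.08 and −0.20 ± 0.10, and in TβRII−/− PT cells −0.35 ± 0.08 and −0.29 ± 0.08. Rdh10, a retinol dehydrogenase of the retinoid list, rose with H2O2 in both, from 776 ± 21.2 to 1867 ± 31.1 in TβRIIflox/flox and from 757 ± 80.0 to 1358 ± 66.0 in TβRII−/− PT cells, and the rise was smaller in the latter (interaction log2 −0.42 ± 0.10, edgeR adjusted p = 0.00396). Stra6, Crabp2 and Rdh11 of that list rose in TβRIIflox/flox PT cells alone by the call limits. The interaction was called for Rdh11 (log2 −0.74 ± 0.09) and, in the other direction, Dhrs3 (log2 0.34 ± 0.09), and not for Stra6 or Crabp2 (edgeR adjusted p = 0.116 and 0.168).

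Aldh1l2 and Cyp46a1 rose in both genotypes. Aldh1l2, the mitochondrial formyltetrahydrofolate dehydrogenase, had 227, 184 and 147 normalized counts untreated and 297, 413 and 385 with H2O2 in TβRIIflox/flox PT cells (1.96-fold, edgeR adjusted p = 5.78e-07). In TβRII−/− PT cells it had 119, 168 and 157 against 406, 352 and 354 (2.49-fold, edgeR adjusted p = 1.97e-09). Treated libraries were above untreated ones in both lines. Its cytosolic counterpart Aldh1l1 was not called (log2 −0.27 ± 0.07 and −0.04 ± 0.07), and Mthfd2, of the mitochondrial folate pathway, was lower in both, by 1.55-fold and 1.59-fold. Cyp46a1 rose from 45.5 ± 10.8 to 89.7 ± 7.40 in TβRIIflox/flox and from 61.5 ± 5.27 to 110.0 ± 5.71 in TβRII−/− PT cells.

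The remaining calls were made in one genotype, except for Cyp4b1, which was called in both with opposite signs. In TβRIIflox/flox PT cells Cyp1b1, Cyp2s1, Cyp4b1, Cyp4f13 and Cyp7b1 rose, and Cyp7b1, at 11.2, 10.3 and 9.17 normalized counts with H2O2, lost its call without replicate 1 of the untreated cells (edgeR adjusted p = 0.0918). In TβRII−/− PT cells Akr1c19 rose to 209.5, 194 and 174 from 72.2, 110.4 and 128 (1.85-fold, edgeR adjusted p = 4.21e-05), while Aldh6a1, Ces2f and Cyp4b1 fell. Ces2f went to 46.2, 36.2 and 50.7 (2.05-fold lower, edgeR adjusted p = 8.14e-05). Aldh3b3 was also called higher (edgeR adjusted p = 0.0389), and leaving out any 1 of the 6 libraries ended that call. Akr1c19, Ces2f, Cyp4f13, Cyp7b1 and Aldh3b3 did not pass the test of the difference between the genotypes (edgeR adjusted p between 0.228 and 0.839).

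To test whether H2O2 acted differently in the genotypes, the interaction was called at an adjusted p under 0.05 with no fold limit. It was called for 5 of the 52 phase I genes, against 10.2% of all genes. For all 5 the log2 effect in TβRII−/− minus that in TβRIIflox/flox PT cells was negative, as it was for 6.28% of all genes. A negative value can mean a smaller rise, a larger fall or a change of sign. Of the 38 genes that reached 10 counts in each library it was called for 4, against 11.6%. Cyp1b1 rose from 203, 191 and 144 to 668, 664 and 672 normalized counts with H2O2 in TβRIIflox/flox PT cells (3.72-fold, edgeR adjusted p = 8.1e-17). In TβRII−/− PT cells it went from 971, 917 and 931 to 1170.5, 1197 and 1342 (1.32-fold, below the fold limit). The genotype difference thus went from 5.23-fold without to 1.85-fold with H2O2, and the responses differed by −1.50 ± 0.12 on the log2 scale (edgeR adjusted p = 3.62e-10). Even so, TβRIIflox/flox PT cells with H2O2 stayed below untreated TβRII−/− PT cells.

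Cyp4b1 was the only phase I gene called in opposite directions, which held for 2 of all genes tested. It rose from 9.47, 7.79 and 14.0 to 28.4, 24.8 and 25.2 normalized counts in TβRIIflox/flox PT cells (2.49-fold, edgeR adjusted p = 0.002), and fell from 100.4, 69.7 and 77.5 to 41.5, 55.0 and 40.8 in TβRII−/− PT cells (1.78-fold lower, edgeR adjusted p = 0.0012). The treated and untreated libraries did not overlap in either line, and the interaction was −2.15 ± 0.39 (edgeR adjusted p = 0.00035).

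Aldh6a1 had 339, 344 and 332 normalized counts with H2O2 in TβRIIflox/flox PT cells, 1.45-fold below the untreated level and within the fold limit. In TβRII−/− PT cells it fell to 1365, 1336 and 1266 (2.001-fold lower, edgeR adjusted p = 6.93e-15), and the interaction was −0.47 ± 0.09 (edgeR adjusted p = 0.00133). Prodh, of the proline pathway, also fell in TβRII−/− PT cells (1.96-fold), with an interaction of −0.46 ± 0.20 that was not called (edgeR adjusted p = 0.153).

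Cyp2s1 rose to 33.5, 33.1 and 26.4 normalized counts in TβRIIflox/flox PT cells (2.26-fold, edgeR adjusted p = 0.00123) and had 175, 192 and 215 in TβRII−/− PT cells, overlapping the untreated libraries. Its interaction was −1.01 ± 0.31 (edgeR adjusted p = 0.0348). Cyp20a1, a P450 of unknown substrate, had 821 ± 52.3 and 954 ± 17.2 normalized counts in TβRIIflox/flox and 579 ± 26.5 and 544 ± 9.16 in TβRII−/− PT cells, with an interaction of −0.30 ± 0.10 (edgeR adjusted p = 0.0381). Both of these calls lie near the threshold: leaving out single libraries, in turn from all 12, ended that of Cyp2s1 in 7 cases (adjusted p up to 0.123 by edgeR) and that of Cyp20a1 in 8 (up to 0.104). Adh7 stayed just outside, with an interaction of −0.33 ± 0.11 (edgeR adjusted p = 0.0509).

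**Figure D5:**
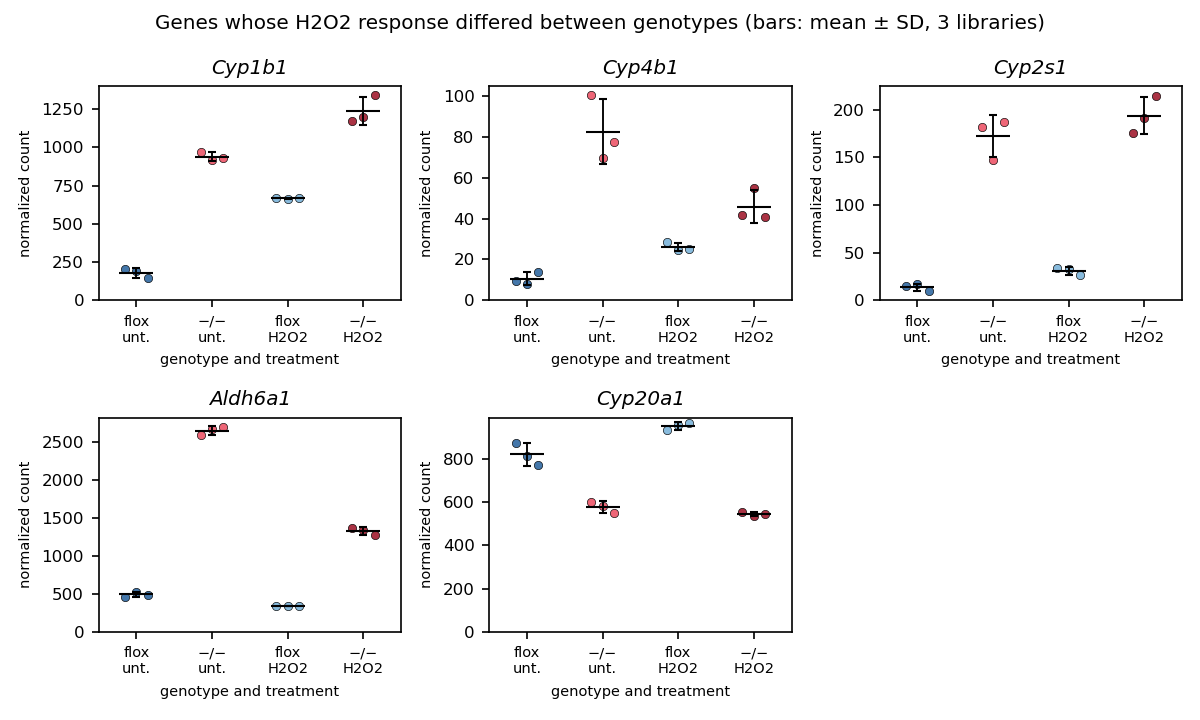
Normalized counts (linear axis) of Cyp1b1, Cyp4b1, Cyp2s1, Aldh6a1 and Cyp20a1, untreated and with H2O2, in TβRIIflox/flox and TβRII−/− PT cells. Points are libraries and bars are the mean ± SD of 3. Cyp1b1 with H2O2 was at 3.72-fold the untreated level in TβRIIflox/flox and at 1.32-fold in TβRII−/− PT cells, and Cyp4b1 went up in the first line and down in the second.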

How the data were processed

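RNA was measured by TruSeq mRNA sequencing in 12 libraries, 3 per group, grouped by the labels. The authors trimmed reads with fastp, aligned them with STAR to GRCm38.p6 (GENCODE M23) and deposited featureCounts values as raw counts per transcript. Gene counts had been assumed in the design. Because transcripts of one gene share reads, the transcript with the highest total stood for its gene. Of 106332 transcripts 104820 matched GENCODE M39 identifiers, giving 25514 genes; the unmatched held 1.22% to 1.28% of the counts. The kit used for RNA extraction differs between the methods and the labels.

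Counts were tested with edgeR 4.0.16 (TMM, filterByExpr, glmQLFit and glmQLFTest, 1 model of the 12 libraries) in R 4.3.3, with Benjamini-Hochberg adjustment over 12971 genes. Normalized counts are scaled to the mean effective library of 17351835. Folds against groups with at most 3 counts per library are lower bounds against that floor, and these cover counting error only. Sequence sharing was computed with BLAST 2.17.0 (at least 98% identity over 50 bases). Promoter windows matched 131 of the 170 genes. The script was tested on simulated data. DESeq2 1.42.0, other normalizations, filters, call limits, summed transcripts, a replicate block and leaving out each library were alternatives.

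The members and gene lists were chosen with earlier results of these data known. Genes named were up to 30 called between untreated genotypes by adjusted p with a mean of at least 50 in either group, up to 10 per H2O2 comparison and for the interaction, the gene with the highest mean per role, and up to 3 per pathway list. Genes below that mean, untested genes and further list members that are named were chosen after their values were seen. Part of the retinoid list is not reported here.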

Additional observations from a re-analysis of the deposited data

Results flagged for a closer look

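For 5 phase I genes the H2O2 effect, with its change to serum free media, differed between TβRII−/− and TβRIIflox/flox PT cells by edgeR's test of the interaction, 5 of the 52 tested against 10.2% of all genes. The difference of the log2 effects, TβRII−/− minus TβRIIflox/flox, was −2.15 for Cyp4b1, −1.50 for Cyp1b1, −1.01 for Cyp2s1, −0.47 for Aldh6a1 and −0.30 for Cyp20a1. The calls of Cyp2s1 and Cyp20a1 were lost when single libraries were left out, and those of the other 3 were not. What underlies these differences was not tested.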

How the results depend on the processing

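Across 944 single-gene values recomputed under other settings for 72 results, 914 kept their direction and stayed on the same side of the call limits. Of the others, 25 no longer passed the limits, 2 newly passed, and 3 changed direction but were called under neither setting. No called value changed direction. The numbers of phase I genes called were 30 and 28 between genotypes without and with H2O2, 10 and 10 for H2O2 in TβRIIflox/flox and TβRII−/− PT cells, and 5 for the interaction. Requiring at least 10 counts in every library gave 16, 14, 6 and 5 for the first 4, where fewer genes were tested. Without a fold limit the counts were 45 for genotype with H2O2 (66.4% of all genes), 24 for H2O2 in TβRIIflox/flox (41.6%) and 27 in TβRII−/− PT cells (39.6%). The interaction gave 3 with an unadjusted p under 0.01 and a fold of 1.5 (2.75% of all genes), and 3 with the adjusted p and that fold (2.36%). Leaving out 1 library in turn gave 29 to 32, 27 to 30, 10 to 11, 9 to 11 and 3 to 7, the lowest interaction count without replicate 1 of TβRII−/− PT cells with H2O2. With the replicate number as a block the calls were 30, 28, 10, 9 and 5. Same-numbered libraries did not deviate together (correlations −0.090 to 0.058). Such correlations cannot show whether these libraries came from the same culture, and the labels give only a shared number. Under the block Aldh3b3 lost its call for H2O2 in TβRII−/− PT cells (edgeR adjusted p = 0.0536), as it did with DESeq2 (adjusted p = 0.109). Adh7 passed the interaction test with DESeq2, with its size factors, without a filter, with at least 10 counts, and when any of 4 single libraries was left out. Low counts limit the genes under 50 normalized counts most.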
